A study of Mus musculus with 55 samples.

Results

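Pre-mRNA levels of mouse embryonic stem (ES) cells in early G1, the first hours after division, were compared with those of the same cells growing asynchronously. Early G1 is used here as a name for the times sampled. The paper saw DNA replication begin in some released ES cells before these times, and reports that most asynchronous ES cells are in S phase. The early G1 libraries may thus hold S phase cells, whose share was not measured here. The comparison took 7 of the 55 samples of the series, all from CTCF-AID cells that received no auxin (−IAA): 4 early G1 libraries, collected 90 min after release from a mitotic block in replicates 1 and 3 and 120 min after it in replicates 1 and 2, and 3 asynchronous libraries, replicates 1, 2 and 3. CTCF-AID cells are a clone derived from E14Tg2a (strain 129/Ola) in which the architectural factor CTCF carries an auxin-inducible degron, so that IAA, an auxin, triggers its breakdown. The degron was present in both groups compared and was not triggered in either. All cells grew in serum with LIF. The early G1 cells had been held for 4 h in 10 µM RO-3306, an inhibitor of CDK1, and for 4 h in 50 ng/ml nocodazole, which depolymerises microtubules, then shaken off and reseeded without drug. The asynchronous cells were harvested alongside without these steps, so position in the cell cycle and handling cannot be told apart in this comparison. Each early G1 library was paired with the asynchronous library of its replicate, which gave 4 pairs, and replicate 1 entered 2 of them. Libraries of the same cells with 0.5 mM IAA, and of CCNA-GFP cells, which carry a cell cycle reporter, are set beside these at the end.

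ES cells divide fast and have a short G1, during which the pre-replicative complex (ORC, CDC6, CDT1 and the MCM helicase) is loaded on DNA for the next S phase. E2F factors, held in check by the RB family, activate genes of licensing and DNA synthesis, whereas genes needed for mitosis are typically transcribed late in the cycle from promoters with CHR elements and CCAAT boxes. The p53 protein, which is abundant in ES cells, responds to DNA damage and to prolonged mitosis, and activates genes of cell cycle arrest, apoptosis and metabolism.

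The measured value is the abundance of the unspliced, intron-containing form of each gene in ribo-depleted RNA, in TPM, a unit normalised for gene length and library size, multiplied by a factor of each library. For 14 listed genes with a single exon in every transcript there is no intron, so pre-mRNA cannot be told apart from mRNA. The sum over the 10237 listed genes was 23185, 20361 and 28455 TPM in asynchronous replicates 1, 2 and 3. It was 29193 and 38934 TPM at 90 min (replicates 1 and 3) and 28422 and 30184 TPM at 120 min (replicates 1 and 2). The sum was thus higher in early G1 in every pair, by 1.26-fold, 1.37-fold, 1.23-fold and 1.48-fold, with means of 31683 ± 4887 against 24000 ± 4108 TPM (SD, n = 4 and 3; two-sided exact permutation p = 0.114, where the smallest possible p is 0.0571). Within replicates the exact permutation p was 0.083, the smallest that 12 assignments allow. The library factors, which the study does not name, rose by 1.18-fold, 1.40-fold, 1.23-fold and 1.29-fold in the same pairs, and the sums after division by them gave ratios of 1.07, 0.981, 0.999 and 1.15. The number of reads behind a TPM value is unknown, and in bulk RNA fewer cells with a transcript and less transcript per cell cannot be told apart. Of 7 ES cell markers, 6 were listed, 2 of them called lower and 0 higher under the scalings explained next, with summed levels of 73.9 to 118 TPM in early G1 and 66.4 to 134 TPM in asynchronous cells. Markers of primitive endoderm, trophoblast, fibroblasts, mesoderm and 2-cell-like cells summed to under 5 TPM in every library, and of these 1 trophoblast marker was called higher and 2 of 3 listed 2-cell-like markers lower under both scalings. The 3 listed neural markers of 4 summed to 5.52 to 9.36 TPM in early G1 and 3.25 to 4.63 TPM in asynchronous cells, and 2 of them rose.

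Because of the difference in library sums, each gene was compared on log2(TPM + 1) with limma, in TPM as deposited and after every library had been scaled to the same total of listed TPM. A gene was called only where the Benjamini-Hochberg adjusted p was under 0.05 in the same direction on both scales. As deposited, the median gene was 0.26 higher in early G1 on the log2 scale (quartiles 0.06 and 0.46), 6093 genes (59.5%) were higher and 814 (7.95%) lower. At the same total the median was 0.01 (quartiles −0.19 and 0.21), with 3075 genes (30.0%) higher and 2867 (28.0%) lower. Under both scalings 3075 genes (30.0%) rose, 814 (7.95%) fell and 6348 were not called. Without replicate 1 these counts were 1898 higher and 399 lower. The shift shared by most genes therefore depends on the scaling, and the counts below read against 30.0% of all genes higher and 7.95% lower. With the library factor divided out in place of the deposited scale, 2721 genes (26.6%) rose and 2034 (19.9%) fell on both scales, and counts given after this division read against these shares. At the same total 158 genes rose and 57 fell by more than 1 on the log2 scale. This count favours rises by construction, since a gene can be listed through its post-mitotic level alone and one at 1 TPM or less in asynchronous cells cannot fall by more than 1 on log2(TPM + 1). The counts of genes that rose, above and in the lists below, also include genes listed through their post-mitotic level alone.

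**Figure D1:**
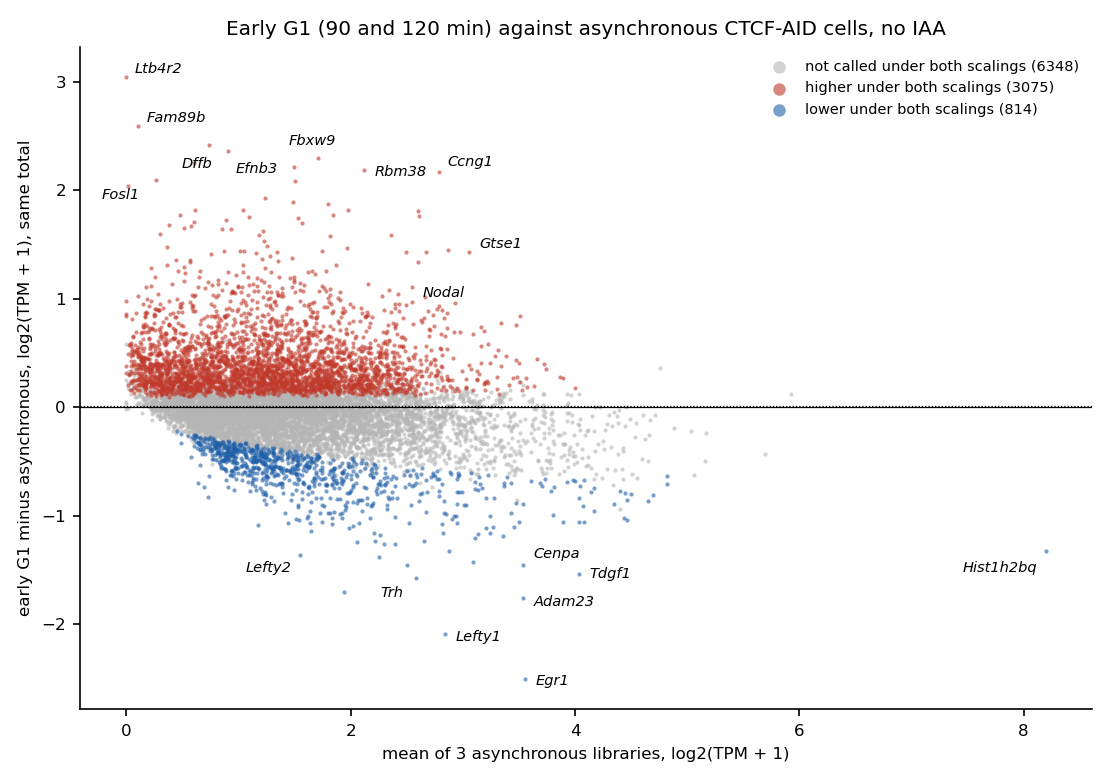
Difference between early G1 and asynchronous −IAA cells at the same library total (y, log2(TPM + 1), fitted over 4 pairs) against the mean of the 3 asynchronous libraries (x, log2(TPM + 1)), 1 point per gene, with the dotted line at the median of all genes. The 3075 genes higher under both scalings reach a difference of 3.05 (Ltb4r2) and the 814 lower genes reach −2.51 (Egr1).

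The 12 largest rises were found in Ltb4r2, Fam89b, 1700007K13Rik, Dffb, Fbxw9, Neurod1, Efnb3, Rbm38, Ccng1, Fosl1, Tmppe and Gpr75. A gene below 0.5 TPM in asynchronous cells was listed only if it passed that level in 2 or more samples after mitosis. It thus had to be higher there. For Ltb4r2, Fosl1, Phlda1 and Bmi1 values are given with no test, and Fam89b and Gpr75 lay below this level too. Whether the authors applied this cut before or after the library factor is not known. If before, genes somewhat above 0.5 TPM here, such as Dffb, Rb1 and Zbtb39, may have been listed the same way. Their p-values carry this doubt. Dffb, the nuclease that fragments DNA in apoptosis, stood at 8.92 and 12.4 TPM at 90 min and 10.7 and 11.2 TPM at 120 min, against 0.837, 0.978 and 0.792 TPM in asynchronous cells. It was 12.4-fold higher on average (log2 difference 2.64 ± 0.13 SE as deposited and 2.36 at the same total, adjusted p = 1.7e-08). Rbm38, an RNA-binding protein and known p53 target, stood at 20.8, 29.9, 21.4 and 24.7 TPM in early G1 and 3.29, 2.56 and 4.17 TPM in asynchronous cells, a 7.24-fold difference (log2 2.53 ± 0.14 and 2.19, adjusted p = 2.0e-08). Both genes were thus uniformly high in early G1, with no overlap between the groups, as for 39.4% of all genes with early G1 above. Fosl1, an AP-1 subunit, rose from 0.167, 0.282 and 0.151 TPM to 4.47, 5.05, 6.5 and 3.97 TPM (25-fold, log2 2.27 ± 0.11 and 2.09). Efnb3, a ligand of Eph receptors, rose from 1.62, 0.956 and 2.87 TPM to 9.53, 23.0, 12 and 14.9 TPM (8.19-fold, log2 2.51 ± 0.17 and 2.22, adjusted p = 5.5e-08). Fbxw9, which encodes an F-box protein, rose 8.65-fold, from 2.08, 2.39 and 2.30 TPM to 18.6, 22.9, 18.3 and 18.3 TPM (log2 2.64 ± 0.12 and 2.30, adjusted p = 1.0e-08).

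For other genes of this group the annotation limits the reading. Ltb4r2, a leukotriene B4 receptor gene at chr14:55761428-55765138 (GRCm38), was listed at 0 in the 3 asynchronous libraries and at 4.29, 9.19, 10.9 and 10.2 TPM in early G1 (log2 3.19 ± 0.52 and 3.05). Its neighbour Ltb4r1, chosen after its values were seen, rose from 1.13, 0.826 and 0.585 TPM to 5.43, 4.95, 8.26 and 7.49 TPM. Gpr75 was listed at 0 in 2 of the 3 asynchronous libraries and at 2.95 to 4.75 TPM in early G1. Of the group, 5 genes overlap another gene on the same strand, to which reads could belong: Fam89b (Sssca1), Fbxw9 (Mir7070), Neurod1 (Cerkl), Tmppe (Glb1) and Gpr75 (Asb3).

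The 12 largest falls were those of Egr1, Lefty1, Adam23, 1700030C10Rik, Trh, Tdgf1, Fgf17, Cenpa, Triml1, Cpsf4l, Lefty2 and Platr22. Egr1, an immediate early transcription factor downstream of ERK and SRF, stood at 9.74, 12.2 and 10.3 TPM in asynchronous cells and at 0.833, 1.90, 0.935 and 2.66 TPM in early G1 (6.81-fold lower, log2 −2.17 ± 0.22 and −2.51, adjusted p = 2.0e-06). Adam23, which encodes a cell surface protein of the disintegrin family, stood at 10.7, 8.02 and 13.1 TPM against 3.37, 3.11, 3.81 and 3.05 TPM (3.18-fold lower, log2 −1.41 ± 0.10 and −1.76, adjusted p = 9.2e-08). Neither gene had an early G1 library as high as any asynchronous one, as for 3.57% of all genes. Of the Nodal pathway, the extracellular inhibitors Lefty1 and Lefty2 and the co-receptor Tdgf1 fell together, whereas Nodal itself rose. Lefty1 stood at 7.36, 8.36 and 2.77 TPM in asynchronous cells and at 0.657, 0.342, 0.388 and 3.16 TPM in early G1 (log2 −1.81 ± 0.29 and −2.10, adjusted p = 1.2e-04), and the replicate 2 library at 120 min overlapped the asynchronous range. Lefty2 fell 6.13-fold, from 3.10, 1.52 and 1.15 TPM to 0.285, 0.184, 0.228 and 0.559 TPM (log2 −1.15 ± 0.16 and −1.36, adjusted p = 2.7e-05). Tdgf1 stood at 17.6, 8.69 and 20.0 TPM against 4.19, 13, 3.51 and 5.70 TPM (log2 −1.16 ± 0.26 and −1.54, adjusted p = 0.0016), with overlapping groups but a fall in every pair. Nodal, chosen after its values were seen, rose from 4.89, 3.82 and 5.79 TPM to 13.9, 16.3, 16.4 and 9.70 TPM (log2 1.33 ± 0.10 and 0.97, adjusted p = 1.0e-07).

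Targets of p53 formed the list with the largest shift. Of 26 members 22 were listed, and 19 of these rose under both scalings and 0 fell, with a median log2 difference of 1.18 as deposited and 0.85 at the same total, beside 0.26 and 0.01 over all genes. Ccng1, which encodes cyclin G1, was the most changed, at 36.3, 38.8, 38.4 and 40.6 TPM in early G1 and 5.19, 8.08 and 4.43 TPM in asynchronous cells (6.53-fold, log2 2.55 ± 0.14 and 2.17, adjusted p = 2.1e-08). Phlda3, an inhibitor of AKT signalling, stood at 14.8, 16.2, 15.8 and 17.7 TPM against 2.18, 4.17 and 2.43 TPM (5.51-fold, log2 2.16 ± 0.14 and 1.82, adjusted p = 4.1e-08). Ddit4, an inhibitor of mTORC1, stood at 6.33, 7.50, 7.57 and 9.28 TPM against 0.892, 1.65 and 0.623 TPM (7.27-fold, log2 2.10 ± 0.15 and 1.82, adjusted p = 8.5e-08). In all 3 genes the 4 early G1 libraries lay close together and far above the asynchronous ones. Every early G1 library lay above every asynchronous one in 39.4% of all genes. Btg2, an antiproliferative cofactor, rose 5.45-fold (log2 2.12 ± 0.20 and 1.78, adjusted p = 1.2e-06), and its asynchronous levels of 2.79, 3.45 and 1.51 TPM did not overlap 12, 15.1, 12.2 and 17.1 TPM in early G1. Of the members that promote apoptosis, Bax rose by 1.00, Pmaip1 by 1.03 and Bbc3 by 1.34 on the log2 scale as deposited, and by 0.65, 0.76 and 1.08 at the same total. The 3 members not called were Sesn1 (0.18 and −0.02), Xpc (0.24 and 0.00) and Rrm2b (0.18 and 0.05).

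The stretch upstream of Ccng1 is shown because it was the only promoter of the p53 list that held a match to the p53 element, searched in the 250 bases before the RefSeq start (GRCm38.p6) of the 8199 listed genes with an entry. The element was taken in its full consensus of 20 letters on both strands with at most 2 mismatches, and the match, in capitals, has 1 mismatch and lies 195 to 176 bases before the start, at chr11:40755437-40755506 on the minus strand.
Ccng1: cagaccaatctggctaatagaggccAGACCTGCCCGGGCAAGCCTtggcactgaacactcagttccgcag
Of the 15 p53 list promoters in the table, 1 held the element, and it occurred in 31 of all 8199 (0.378%), in 19 of 2470 promoters of genes that rose (0.769%), in 0 of 633 of genes that fell and in 73 of the 27025 promoters of the whole table (0.270%). Such a match is a description of letters, and elements further away were not searched.

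The host of miR-34a, a microRNA known as a p53 target that represses cell cycle regulators, was looked at after its values were seen. The Mir34a gene (chr4:150068454-150068555 on the plus strand, 102 bases, inside Gm37795) was listed at 20.3, 29.2, 26.0 and 29.8 TPM in early G1 and at 5.04, 5.26 and 5.04 TPM in asynchronous cells (5.15-fold, log2 2.13 ± 0.22 and 1.77, adjusted p = 2.7e-06). These values come from long RNA over a short gene inside another one, so they do not measure the mature microRNA. Its mature 5′ arm is given from RefSeq with the seed, bases 2 to 8, in capitals.
mmu-miR-34a-5p: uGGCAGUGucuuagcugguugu

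**Figure D2:**
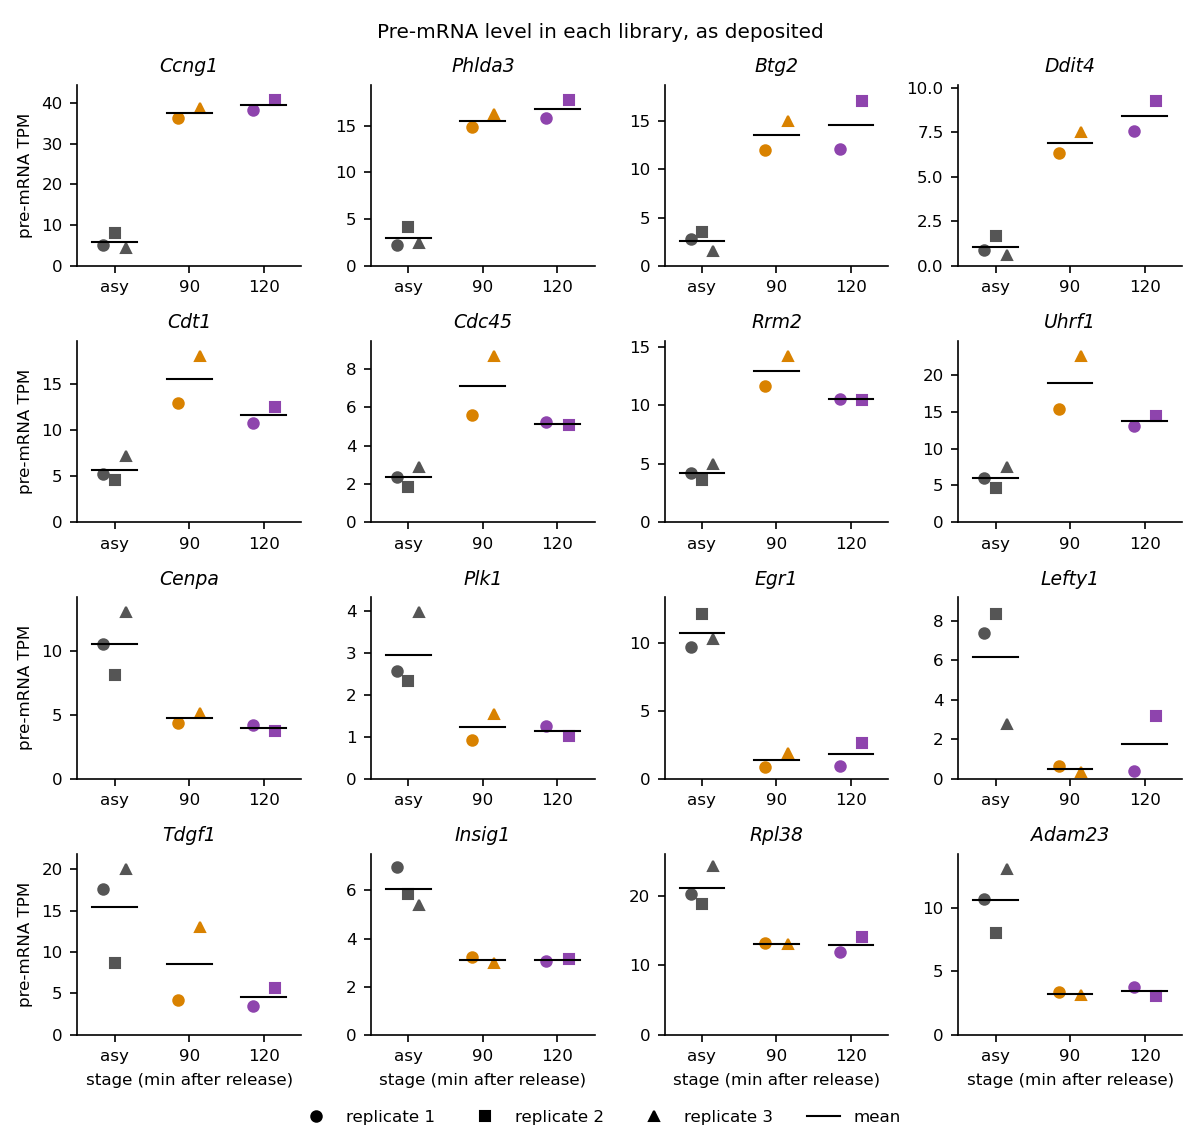
TPM as deposited (y) of 16 genes in the 4 early G1 and 3 asynchronous libraries, with markers for replicates and bars for group means. Ccng1 lies at 36.3 TPM or more in early G1 and at 8.08 TPM or less in asynchronous cells, and Egr1 shows the reverse, at most 2.66 against at least 9.74 TPM.

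Most listed genes of replication licensing rose, though not without replicate 1, where 10 of 25 rose. Of 26 members of the origin licensing and firing list 25 were listed, 15 rose and 1 fell under both scalings, with a median of 0.61 as deposited and 0.27 at the same total. Cdt1, which loads the MCM helicase, stood at 13, 18.1, 10.8 and 12.5 TPM in early G1 and at 5.30, 4.58 and 7.19 TPM in asynchronous cells (2.39-fold, log2 1.12 ± 0.14 and 0.75, adjusted p = 1.8e-05). Cdc45, a part of the active helicase, stood at 5.59, 8.69, 5.22 and 5.09 TPM against 2.38, 1.85 and 2.89 TPM (2.59-fold, log2 1.06 ± 0.10 and 0.75, adjusted p = 1.6e-06). Early G1 and asynchronous libraries did not overlap for either gene, as for 39.4% of all genes with early G1 above. Of the MCM subunits, Mcm2, Mcm4, Mcm5, Mcm6 and Mcm7 rose, by 0.35 to 0.69 at the same total, whereas Mcm3 (0.40 as deposited and 0.04 at the same total) was not called. Cdc6 rose by 0.97 and 0.64, and Orc1, the cell cycle-regulated ORC subunit, by 0.91 and 0.55. Gmnn, the inhibitor of CDT1, was 0.51 higher as deposited and 0.18 higher at the same total, and was not called. The member that fell was Dbf4 (−0.30 and −0.64), the activator of the CDC7 kinase. It was not called without replicate 3.

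DNA synthesis and nucleotide supply gave 24 higher and 0 lower genes of 37 listed, with a median of 0.55 and 0.25. Rrm2, the regulated subunit of ribonucleotide reductase, stood at 11.7, 14.2, 10.5 and 10.5 TPM against 4.16, 3.58 and 4.98 TPM (2.76-fold, log2 1.26 ± 0.12 and 0.91, adjusted p = 1.4e-06). Uhrf1, which recruits DNMT1 to replicated DNA, stood at 15.3, 22.6, 13 and 14.4 TPM against 5.99, 4.67 and 7.47 TPM (2.70-fold, log2 1.26 ± 0.15 and 0.90, adjusted p = 9.6e-06). Chaf1b, a histone chaperone subunit, rose by 0.92 ± 0.12 and 0.60 (adjusted p = 2.1e-05). These genes separated the groups in every library, as did 39.4% of all genes with early G1 above. The replicative clamp Pcna rose by 0.62 and 0.25, and the polymerase subunits Pole (0.35 and 0.03) and Pola1 (0.21 and −0.10) were not called. Without replicate 3, 15 genes of this list rose.

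Stretches that hold E2F-like letters are shown for 4 licensing genes that rose, because the motif occurred in a larger share of this list than of all listed genes. The letters searched were TTTNNCGC, with each N either G or C, on both strands of the same 250 bases, and the match nearest the start is in capitals. The stretches, in GRCm38.p6, are chr4:108579416-108579445 (plus, within an Orc1 exon of Gencode), chr1:128359734-128359763 (minus), chr8:75109349-75109378 (plus) and chr11:98908002-98908031 (plus).
Orc1: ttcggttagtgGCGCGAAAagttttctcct
Mcm6: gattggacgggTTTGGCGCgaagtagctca
Mcm5: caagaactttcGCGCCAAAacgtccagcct
Cdc6: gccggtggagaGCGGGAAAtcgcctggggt
The motif occurred in 7 of 19 promoters of the licensing list (36.8%), namely those of Cdc6, Mcm5, Mcm6, Mcm7 and Orc1, which rose, and of Gins3 and Orc3, which were not called. It occurred in 6 of 18 of the G1 regulator list (33.3%), in 3.78% of listed genes and in 1.91% of the promoters of the whole table. It was about as frequent among all genes that rose (3.85%) as among all genes that fell (3.32%).

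Of 27 regulators of the G1 to S transition 25 were listed, and 10 rose and 2 fell, beside 30.0% and 7.95% of all genes, with a median of 0.30 and 0.06. The largest rise was that of Cdkn1c, which encodes the CDK inhibitor p57, from 0.948, 1.67 and 0.792 TPM to 7.84, 6.11, 6.68 and 10.6 TPM (6.86-fold, log2 2.04 ± 0.13 and 1.75, adjusted p = 4.6e-08). The pocket proteins diverged, with the doubt about listing given above for Rb1. Rb1 rose 3.73-fold, from 0.539, 0.652 and 0.566 TPM to 1.80, 2.40, 2.05 and 2.49 TPM (log2 1.02 ± 0.07 and 0.81, adjusted p = 6.4e-08), and Rbl2, the p130 gene, rose 3.25-fold (log2 1.09 ± 0.07 and 0.84, adjusted p = 4.1e-08), whereas Rbl1, the p107 gene, fell (−0.35 and −0.54). Of the E2F genes, the repressors E2f7 (0.93 and 0.60) and E2f8 (0.50 and 0.24) and the activator E2f1 (0.56 ± 0.09 and 0.24, adjusted p = 9.9e-05) rose, as did E2f6, while the activators E2f2 and E2f3 were not called. The cyclins gave a mixed picture, since Ccne2 rose (0.62 and 0.32), while Ccne1 (−0.06 and −0.41), Ccnd1 (−0.08 and −0.41) and the kinase Cdk2 (0.25 and −0.06) were not called under both scalings. Cdk6 fell by 0.36 as deposited and by 0.65 at the same total.

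Genes of mitotic entry and the spindle moved in both directions: 14 fell and 5 rose of 59 listed genes (63 members), with a median of −0.04 as deposited and −0.33 at the same total, where 41 were lower against a background of 28.0%. Cenpa, the centromeric histone H3 variant, fell most, from 10.6, 8.15 and 13.1 TPM to 4.36, 5.19, 4.24 and 3.72 TPM (2.42-fold, log2 −1.09 ± 0.08 and −1.45, adjusted p = 1.5e-07). Plk1, a kinase of mitotic entry and the spindle, fell from 2.57, 2.32 and 3.96 TPM to 0.920, 1.53, 1.25 and 1.01 TPM (2.51-fold, log2 −0.84 ± 0.09 and −1.11, adjusted p = 2.2e-06). Both groups were separate for both genes, as for 3.57% of all genes with early G1 below. Among the other members, the kinase Aurka (−0.75 and −1.03), the spindle assembly factor Tpx2 (−0.58 and −0.88), the mitotic cyclin Ccnb1 (−0.52 and −0.88) and its partner Cdk1 (−0.41 and −0.77) fell. The 5 that rose were Gtse1, Psrc1, Kif15, Aurkb and Ccnf. Gtse1, a microtubule-binding protein that also binds p53, rose 3.86-fold, from 6.97, 6.30 and 8.60 TPM to 24.6, 33.0, 25.6 and 29.4 TPM (log2 1.81 ± 0.12 and 1.43, adjusted p = 4.6e-08), and Psrc1, which encodes a spindle protein known as a p53 target, rose by 1.33 and 0.96. Kif15 (0.82 and 0.47), Aurkb (0.69 and 0.35) and Ccnf (0.53 and 0.23) rose less. After division by the library factor 36 members were called lower on both scales, beside 19.9% of all genes.

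Stretches with a CHR element are shown for 4 members that fell and for Gtse1, which rose, since the same letters stand before genes that moved in opposite directions. The letters searched were TTTGAA and TTTAAA on both strands. The stretches, in GRCm38.p6, are chr5:30666857-30666885 (plus), chr7:122159394-122159423 (plus), chr13:100786511-100786540 (minus), chr10:69352913-69352939 (minus) and chr15:85859683-85859706 (plus). Those of Cenpa, Ccnb1 and Cdk1 touch an exon of the gene in Gencode, and that of Plk1 an exon of Gm15489.
Cenpa: acaaagttgggaTTTAAAagatgcggtgg
Plk1: gcgggtttgtatTTTAAAtccccgcggcca
Ccnb1: agcggcccggggTTTAAAcctaagcccggc
Cdk1: taccgcggcgagTTTGAAactgctggc
Gtse1: gagcgtctcctgTTTAAAcaggcc
A CHR element occurred in 21 of 49 promoters of the list (42.9%), in 16.2% of listed genes and in 25.5% of the whole table, and in 22.0% of genes that fell and 15.2% of genes that rose. The letters CCAAT occurred in 35 of the 49 (71.4%), in 37.9% of listed genes and in 34.5% of the whole table.

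**Figure D3:**
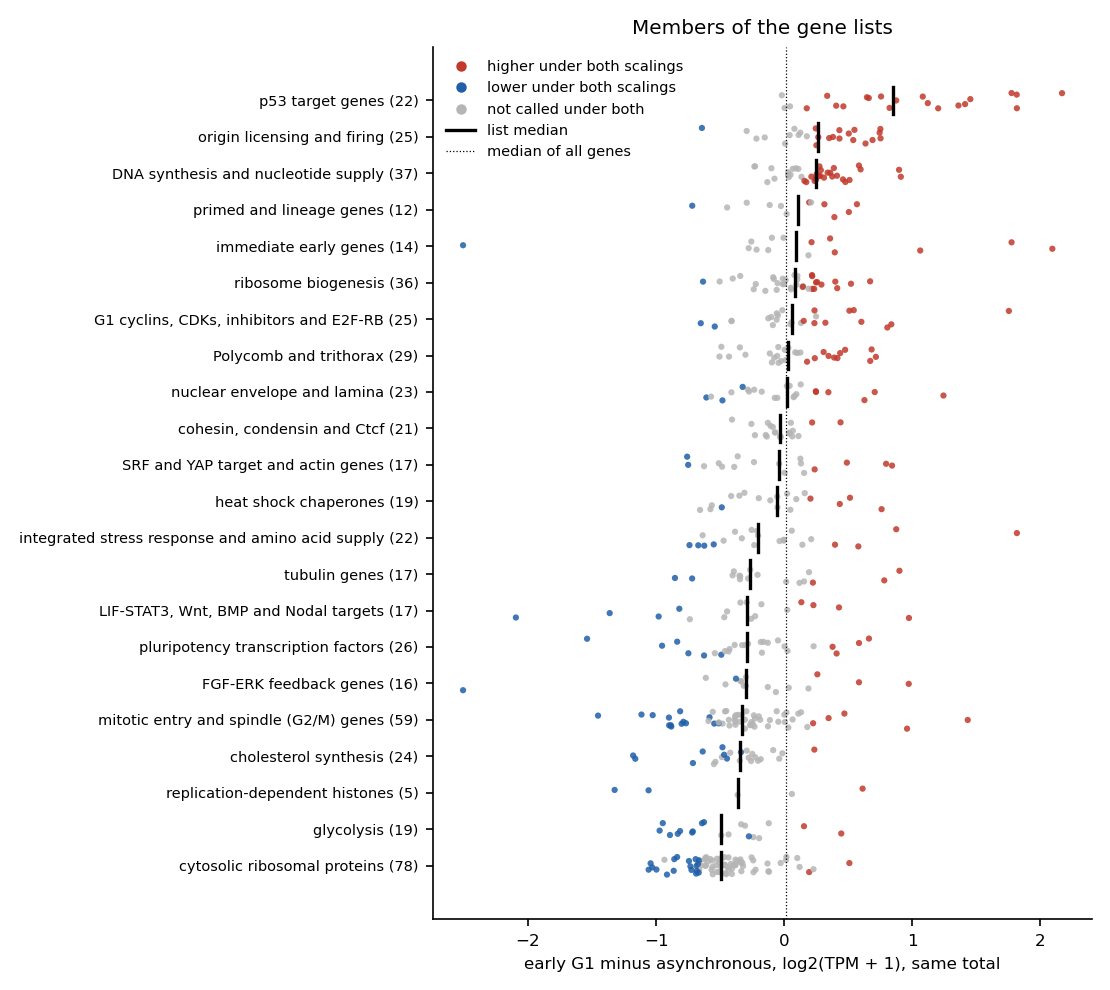
Same-total log2 difference (x) of every listed member of 22 gene lists, coloured by its call under both scalings, with a bar at each list median and a dotted line at the median of all genes. The p53 target list lies to the right at a median of 0.85, and ribosomal proteins lie to the left at −0.50.

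Of 23 genes of cohesin, condensin and their regulators, CTCF included, 21 were listed, and 2 rose, 0 fell and the median was 0.28 and −0.03. Esco2, the acetyltransferase of cohesin in S phase, rose by 0.79 ± 0.11 and 0.44 (adjusted p = 4.8e-05) and the condensin subunit Ncaph by 0.54 ± 0.09 and 0.22 (adjusted p = 1.7e-04). Without replicate 1 or without replicate 3, 1 of the 2 rose. Ctcf stood at 7.34, 10.3, 7.30 and 8.89 TPM against 6.54, 6.10 and 9.13 TPM, which overlap. Its difference was 0.23 as deposited (adjusted p = 0.047) and −0.14 at the same total (adjusted p = 0.039), and it was not called because the sign turned.

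Pluripotency factors split, with 4 higher and 6 lower of 26 listed genes (27 members) and a median of 0.02 and −0.29. Nanog stood at 4.56, 9.21, 3.15 and 5.2 TPM in early G1 and at 6.6, 6.76 and 11.4 TPM in asynchronous cells (log2 −0.47 ± 0.13 and −0.84, adjusted p = 0.0049). Its groups overlapped, and without replicate 1 the difference was −0.30 and was not called. Dppa5a fell by 0.57 ± 0.15 as deposited and by 0.95 at the same total (adjusted p = 0.0047), and by 0.35 without replicate 1, where the call was lost. Pou5f1, the Oct4 gene, was at −0.05 as deposited (adjusted p = 0.77) and −0.43 at the same total (adjusted p = 0.0036). Klf4 (0.17 and −0.13) and Esrrb (0.01 and −0.31) changed sign with the scaling and were not called. Myc rose 2.39-fold (log2 0.86 ± 0.14 and 0.58, adjusted p = 9.7e-05), as did Nr0b1 (0.91 and 0.66), Lin28b (0.65 and 0.38) and Fgf4 (0.59 and 0.41). Without replicate 1, the number of members lower was 1 in place of 6. It was 14 at the same total, beside 28.0% of all genes, and 10 after division by the library factor, beside 19.9%.

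Of 20 primed and lineage genes 12 were listed, and 5 rose and 1 fell, with a median of 0.30 and 0.11. Zic2, a transcription factor of epiblast and neural tissue, stood at 9.18, 13.8, 5.32 and 8.55 TPM against 5.06, 2.56 and 5.59 TPM (log2 0.91 ± 0.23 and 0.57, adjusted p = 0.0029), and Nes, an intermediate filament gene of neural progenitors, rose by 0.79 ± 0.16 and 0.51 (adjusted p = 6.5e-04), with overlapping groups for both. The neural marker sum given above moved with these genes, and its part in the result was not tested. Dnmt3b, a de novo DNA methyltransferase, fell by 0.39 ± 0.10 as deposited and by 0.72 at the same total, and was not called without replicate 1. Of this list 0 rose without replicate 3, 2 without replicate 1 and 2 without the replicate 3 library at 90 min, and without replicate 2 the count lower was 2. With the library factor divided out, 3 were higher and 2 lower, beside 26.6% and 19.9% of all genes.

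Signalling targets also moved in both directions. Of 16 FGF-ERK feedback genes, Myc and Dusp5 rose and 2 fell (Egr1 and Etv1), with a median of 0.04 and −0.30. Phlda1 was also called higher, which makes 3, but its mean lay below 0.5 TPM in asynchronous cells, so its call is given with no test. Phlda1 rose 4.74-fold, from 0.149, 0.608 and 0.679 TPM to 2.17, 2.61, 2.87 and 1.43 TPM (log2 1.16 ± 0.16 and 0.97). Without replicate 1, 1 of this list fell. The sprouty genes Spry2 (0.03 and −0.33) and Spry4 (−0.24 and −0.61), inhibitors of FGF signalling, were not called. Of 17 targets of LIF-STAT3, Wnt, BMP and Nodal, 4 rose and 4 fell (median −0.10 and −0.29). Those that fell were Lefty1, Lefty2, Bcl3 and Skil, and those that rose were Nodal, Id1, Tcf7 and Nkd1. Without replicate 1, 1 gene of the list rose, and without replicate 3, 2. After division by the library factor 7 genes of this list and 7 of the FGF-ERK list were lower on both scales, beside 19.9% of all genes. Bcl3, a STAT3 target, fell by 0.70 ± 0.16 as deposited and by 0.98 at the same total (adjusted p = 0.0015), while Socs3, the other classical STAT3 target, stood at 1.29, 5.53, 1.35 and 4.42 TPM against 4.26, 2.48 and 3.30 TPM and was not called.

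Immediate early genes did not follow Egr1. Of 23 members 14 were listed. Btg2, Btg1, Atf3, Egr3 and Nr4a1 rose and 1 gene fell, with a median of 0.34 and 0.09. Fosl1 was also called higher, which makes 6, but it lay below 0.5 TPM in asynchronous cells, so its call is given with no test. Fos (0.01 and −0.26) and Fosb (−0.06 and −0.22) were not called, and their highest level was in asynchronous replicate 2, at 4.08 and 1.65 TPM. Without replicate 3, 3 members rose. Of 17 SRF and YAP targets and actin genes, 4 rose and 2 fell (0.16 and −0.04). Srf itself rose 2.62-fold, from 1.38, 2.85 and 1.85 TPM to 4.86, 5.95, 4.54 and 5.84 TPM (log2 1.11 ± 0.11 and 0.80, adjusted p = 2.4e-06), and Tagln2, an actin-binding protein, rose 2.92-fold (1.14 ± 0.12 and 0.84, adjusted p = 3.9e-06). Ajuba (−0.40 and −0.76) and Actb (−0.36 and −0.75) fell, neither was called without replicate 1, and 1 gene of the list fell without replicate 3 or without its 90 min library. The count lower was 5 after division by the library factor (19.9% of all genes).

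Nocodazole acts on microtubules, and the tubulin list gave 3 higher and 2 lower genes of 17, with a median of 0.05 and −0.27. Tubg1, the γ-tubulin of centrosomes, stood at 3.64, 6.98, 3.22 and 3.47 TPM against 1.39, 1.24 and 1.87 TPM (2.88-fold, log2 1.07 ± 0.13 and 0.78, adjusted p = 8.0e-06), and Tubb6 rose 3.40-fold (1.15 ± 0.10 and 0.90, adjusted p = 8.1e-07). Tuba1c fell 1.73-fold, from 3.38, 3.30 and 3.00 TPM to 1.80, 1.87, 1.67 and 2.15 TPM (−0.55 ± 0.09 and −0.85, adjusted p = 1.8e-04). Without replicate 1, 1 tubulin gene fell. Heat shock chaperones gave 4 higher and 1 lower of 19 (0.18 and −0.05), led by Dnajb1 (1.06 ± 0.11 and 0.76, adjusted p = 2.5e-06) and Hspa14 (0.85 ± 0.10 and 0.51), while Hspb1, Hspa8 and Hsp90aa1 were not called. The lower gene, Dnajb4, was not called without replicate 1, and without replicate 2 the count lower was 4. After division by the library factor, the calls on both scales were 3 higher and 7 lower for the chaperones and 3 higher and 6 lower for the tubulins, beside 26.6% and 19.9% of all genes. The integrated stress response gave 4 higher and 4 lower of 22 (0.07 and −0.21). Sesn2 (1.22 ± 0.14 and 0.88, adjusted p = 6.9e-06) and Ddit4, both also on the p53 list, Ddit3 (0.85 and 0.58) and Cebpg (0.72 and 0.40) rose. Xbp1, Slc3a2, Chac1 and Phgdh fell, and 0 of these fell without replicate 1. The stress list had 8 lower after the same division.

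Genes of cholesterol synthesis and glycolysis fell more often than they rose. Of 24 cholesterol genes 8 fell and 1, Srebf1 (0.59 and 0.24), rose, with a median of −0.10 and −0.34. Insig1, a sterol-induced retention factor of SREBP, fell from 6.97, 5.87 and 5.38 TPM to 3.24, 3.00, 3.08 and 3.16 TPM (1.95-fold, −0.82 ± 0.17 and −1.16, adjusted p = 7.5e-04). Of 19 glycolytic genes 10 fell and 2 rose (median −0.23 and −0.49). Eno1, enolase, fell from 11.9, 9.75 and 10.1 TPM to 6.86, 8.34, 5.82 and 7.41 TPM (1.49-fold, −0.52 ± 0.10 and −0.89, adjusted p = 6.7e-04), Pkm, pyruvate kinase, by 0.42 and 0.81, and Pdk1, a brake on pyruvate entry into mitochondria, by 0.71 ± 0.10 and 0.97. The lactate dehydrogenases differed, with Ldhb higher (0.78 and 0.45) and Ldha not called (0.08 and −0.20). Without replicate 1, 3 genes of each list fell, Srebf1 and Eno1 (−0.30) were not called, and 1 glycolytic gene rose. The latter count was also 1 without replicate 2, without replicate 3 and without the 90 min library of replicate 3. Cholesterol genes lower on both scales were 15 after division by the library factor, beside 19.9% of all genes.

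Genes of cytosolic ribosomal proteins fell more often than they rose. Of 78 listed genes 18 fell and 2 rose under both scalings (median −0.12 and −0.50), and at the same total alone 63 were lower, beside 28.0% of all genes. Rpl38 stood at 13.2, 13, 12 and 14 TPM against 20.2, 18.8 and 24.2 TPM (1.62-fold lower, log2 −0.66 ± 0.11 and −1.04, adjusted p = 1.8e-04). Rpl35a fell 1.65-fold (−0.70 ± 0.11 and −1.06, adjusted p = 1.3e-04), and Rpl24, which overlaps Gm28037, fell 1.80-fold (−0.69 ± 0.08 and −1.03, adjusted p = 7.4e-06). The 2 that rose were Rpl11 (0.40 and 0.20), whose protein binds MDM2, and Rps27l (0.84 and 0.51), a known p53 target. After division by the library factor 57 were called lower on both scales, beside 19.9% of all genes. The count of falls depended on single replicates: 6 without replicate 1, 31 without replicate 2 and 8 without replicate 3. The count of rises was 1 without replicate 1 and 1 without replicate 2. Ribosomal protein genes have many processed pseudogenes, and how reads shared with these were assigned was not tested. Ribosome biogenesis gave 12 higher genes and 1 lower of 36 (0.41 and 0.09), near the 30.0% and 7.95% of all genes. Polr1e, a subunit of RNA polymerase I, rose 2.68-fold (0.93 ± 0.09 and 0.67, adjusted p = 1.3e-06) and the 40S assembly factor Nop14 by 0.85 ± 0.09 and 0.52 (adjusted p = 2.5e-06). Ncl, nucleolin, was not called (−0.01 and −0.40). Without replicate 1, 6 genes of this list rose, and without replicate 3, 7. The lower gene, Taf1d, was not called without any of replicates 1, 2 and 3, nor without the 90 min library of replicate 3. After division by the library factor, 8 ribosome biogenesis genes were higher and 3 lower on both scales, beside 26.6% and 19.9% of all genes.

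Polycomb and trithorax genes gave 11 higher and 0 lower of 29 (median 0.31 and 0.03). Among those that rose were Pcgf3 (1.02 ± 0.07 and 0.72, adjusted p = 8.0e-08) and Cbx8, several at low levels. The 11 include Bmi1 (0.81 ± 0.09 and 0.67), which lay below 0.5 TPM in asynchronous cells, so its call is given with no test. Bmi1 stood at 0.942, 1.58, 0.844 and 1.23 TPM against 0.167, 0.217 and 0.340 TPM. Of the core of PRC2, Suz12 rose (0.57 and 0.18), whereas Ezh2 (0.38 and 0.03) and Eed (0.50 and 0.13) were not called. Without the replicate 3 library at 90 min, 7 rose, and after division by the library factor 8 were higher and 4 lower, beside 26.6% and 19.9% of all genes. Of 23 nuclear envelope genes 6 rose and 3 fell (0.35 and 0.02). Tmem43, an inner nuclear membrane protein, rose 4.38-fold, from 1.58, 1.17 and 1.58 TPM to 6.38, 8.11, 5.91 and 4.92 TPM (log2 1.53 ± 0.13 and 1.24, adjusted p = 4.8e-07), and Emd, emerin, by 1.01 ± 0.10 and 0.71 (adjusted p = 1.7e-06), whereas Lmnb2 fell (−0.32 and −0.61) and Lmna and Lmnb1 were not called. The B-type lamin Lmnb2, Nup210 and Sun2 made up the falls, and the count of falls was 1 without replicate 1, 1 without replicate 3 and 6 after the same division. Of 5 replication-dependent histone genes, 2 fell and 1 rose. Hist1h2bq fell from 262, 373 and 243 TPM to 155, 162, 186 and 143 TPM (1.82-fold, −0.91 ± 0.33 and −1.32, adjusted p = 0.025), Hist1h2bc by 0.67 ± 0.21 and 1.06, and Hist1h2bp rose by 0.94 ± 0.20 and 0.61. These near-identical genes can share reads, and the paper plotted histone genes as mRNA rather than pre-mRNA. Without replicate 1, 1 of them fell and 0 rose, and Hist1h2bp was not called without replicate 3 or without its 90 min library.

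Both times of early G1 were also compared with asynchronous cells on their own. At 90 min 2709 genes (26.5%) rose and 692 (6.76%) fell under both scalings, and at 120 min 2512 (24.5%) rose and 638 (6.23%) fell. As deposited and in either direction, 6385 genes were called at 90 min, 3034 without replicate 3 and 3513 without its 90 min library. At 120 min they were 5617, with 3597 without replicate 1 and 2898 without replicate 2. Between 120 and 90 min limma called 0 genes (0.00%), with 452 at an unadjusted p under 0.05 as deposited and 702 at the same total, and with 2 libraries per time. Without replicate 2 the count was 8. The earlier stages of the same −IAA series place the lists in time, as same-total medians against asynchronous cells. The p53 targets were at 0.19 in mitotic cells and 0.23 at 20 min, then at 0.79 at 40 min, 0.78 at 50 min and 0.66 at 60 min, and stayed at 0.89 at both 90 and 120 min. Licensing genes were at 0.08 in mitosis, highest at 0.66 at 50 min, and at 0.28 and 0.29 at 90 and 120 min. Cholesterol genes passed from 0.22 at 50 min to −0.27 and −0.43, and Insig1, for example, from a mean of 17.3 TPM at 40 min to 3.12 TPM at both later times. Glycolytic genes were at −0.16 at 60 min and −0.57 at 90 min. Mitotic genes were at −0.09 in mitosis, −0.24 at 90 min and −0.39 at 120 min, whereas ribosomal protein genes were lowest at 60 min (−0.63) and at −0.43 at 120 min. These medians are descriptions, and the stages share their asynchronous libraries.

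**Figure D4:**
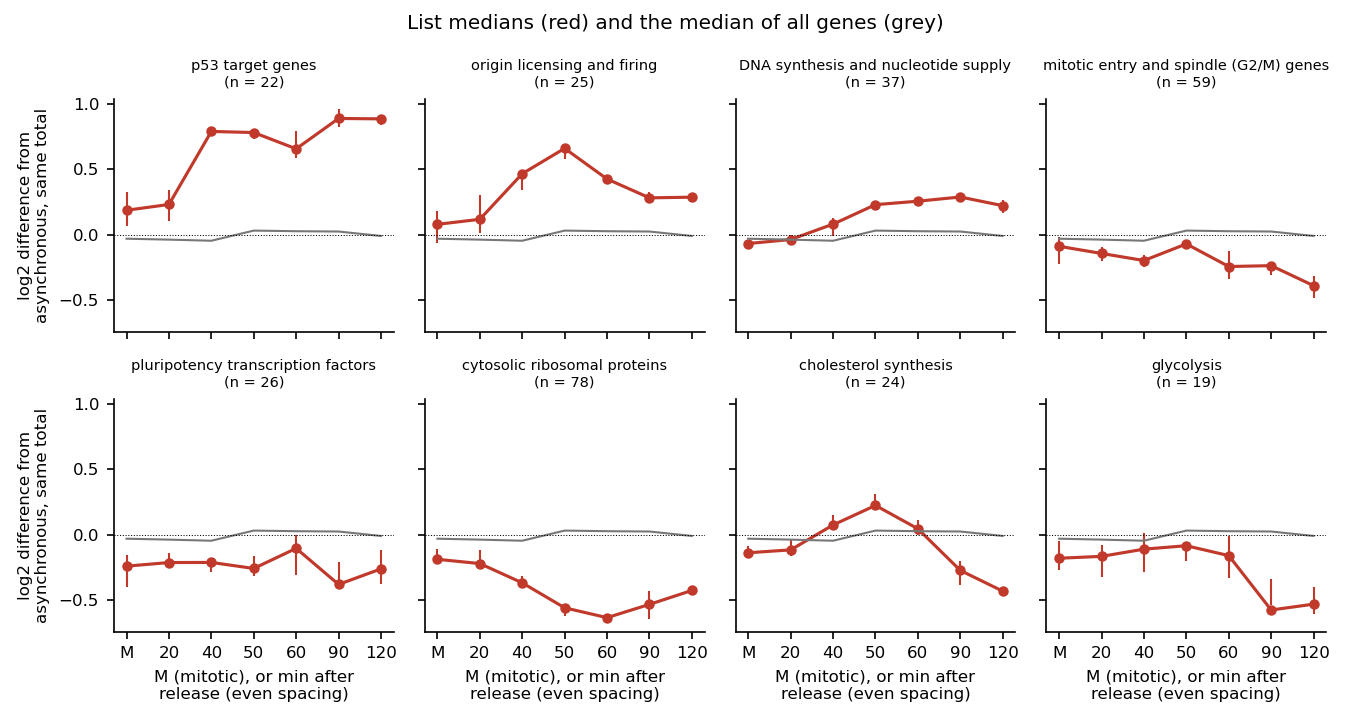
Median same-total log2 difference from asynchronous cells (y) of 8 gene lists in mitotic cells (M) and at 20 to 120 min after release (x, evenly spaced), with vertical lines from the lowest to the highest median of single replicates and the median of all genes in grey. The p53 list keeps a median of 0.66 or more from 40 min on, while cholesterol genes pass from 0.22 at 50 min to −0.43 at 120 min.

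Differences varied with the length of the gene. At the same total the median difference was 0.17 for the 1106 genes under 5 kb, 0.07 for 2673 genes of 5 to 15 kb, 0.00 for 3934 genes of 15 to 50 kb, −0.06 for 1997 genes of 50 to 150 kb and −0.19 for 515 genes over 150 kb. As deposited the medians were 0.36, 0.31, 0.25, 0.20 and 0.05. Under both scalings 39.1% of the shortest class rose and 4.61% fell, and 10.5% of the longest class rose and 27.4% fell. Spearman's rho between length and difference was −0.24 over 10225 genes, which share libraries and are not independent replicates. The longest class was lowest at 50 min (−0.57) and stood at −0.20 and −0.17 at 90 and 120 min. Rb1, at 142150 bp, rose against this pattern, and Adam23, at 150386 bp, fell with it. The median length was 3.40 kb in the ribosomal protein list and 6.58 kb in the immediate early list, beside 22.5 kb over all genes and 16.1 kb in the p53 list.

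**Figure D5:**
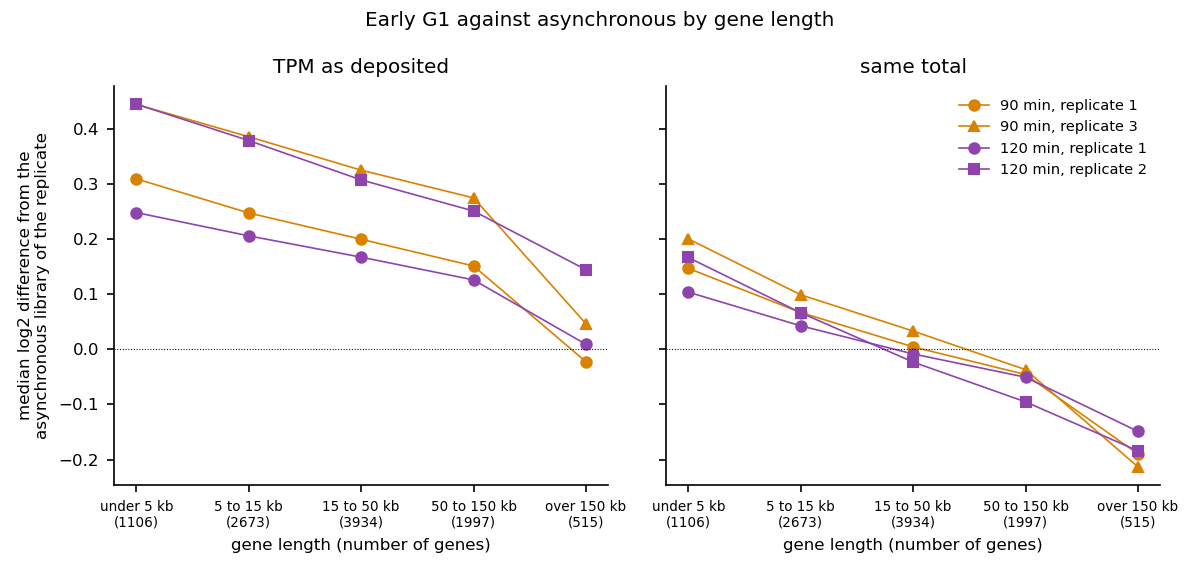
Median log2 difference from the asynchronous library of the same replicate (y) in 5 classes of gene length (x) for each of the 4 pairs, as deposited and at the same total. At the same total the fitted class medians pass from 0.17 under 5 kb to −0.19 over 150 kb.

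The same contrast was available with 0.5 mM IAA, added during the nocodazole step to degrade CTCF and kept through release. The asynchronous +IAA libraries came from cells treated with IAA in parallel. There 3251 genes (31.8%) rose and 986 (9.63%) fell under both scalings. The difference between the effects with and without IAA was tested directly and was called, as deposited, for 1 gene with a larger effect under IAA (0.00977%) and 2 with a smaller one (0.0195%), with 128 genes at an unadjusted p under 0.05. Vps37d, an ESCRT-I subunit, rose by 0.62 without IAA and 1.23 with it (difference 0.62 ± 0.10), and was the gene called under both scalings. Synm, an intermediate filament gene, was at 0.75 and 0.32. Synm lay below 0.5 TPM in every asynchronous library, with or without IAA, and so was listed through samples after mitosis. Vps37d stood at 0.279, 0.652 and 0.491 TPM in asynchronous −IAA cells and at 0.413, 0.559 and 0.645 TPM in asynchronous +IAA cells. Which samples listed Vps37d was not tested. No p is given for either gene, and their calls, counted above, are not read as results. The third was Zbtb39, which encodes a zinc finger protein, at 0.83 and 0.07 (adjusted p = 0.018). Without replicate 1, 2 or 3 the interaction test called 0 genes, and the adjusted p of Zbtb39 was 0.067 or more. Ccng1 rose by 2.55 without and 2.75 with IAA, Cdt1 by 1.12 and 1.21, Egr1 fell by 2.17 and 2.08, and Cenpa by 1.09 and 1.11. Of the p53 list 18 genes rose with IAA, and of the licensing list 17.

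CCNA-GFP cells, another E14Tg2a derivative, carry a cell cycle reporter and went through the same drugs and release. They were measured in a separately normalised table, so values are set side by side with no test between them. Of the 9574 genes in both tables, 33.8% rose and 6.94% fell in CCNA-GFP cells under both scalings. Of 2902 genes that rose in CTCF-AID cells, 2289 (78.9%) also rose in CCNA-GFP cells and 1 fell, and these are 70.8% of the CCNA-GFP rises. Of 752 that fell, 499 (66.4%) also fell and 1 rose, which are 75.2% of the CCNA-GFP falls. Across these genes, which are not independent replicates, the same-total differences had a Spearman's rho of 0.85. In CCNA-GFP cells 17 of the p53 list and 15 of the licensing list rose, with Ccng1 at 1.68 as deposited and 1.11 at the same total, and 15 mitotic genes fell, with Cenpa at −0.95 and −1.39. Calls of metabolic and ribosomal protein genes as lower were fewer there. They were 1 cholesterol, 2 glycolytic and 5 ribosomal protein genes, beside 8, 10 and 18 in CTCF-AID cells, a difference that was not tested. The median of all genes as deposited was higher in CCNA-GFP cells (0.39 beside 0.26). At the same total the medians of these lists were −0.04, −0.30 and −0.37 in CCNA-GFP cells, beside −0.34, −0.49 and −0.50. Ltb4r2 was not called in CCNA-GFP cells (1.29 and 0.84).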

How the data were processed

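Ribo-depleted, stranded, paired-end RNA libraries were mapped by the authors to mm10 with STAR and quantified with RSEM, versions not given in the sources used here, on Gencode transcripts with an added pre-mRNA isoform per gene. The deposited values are TPM of that isoform times a library factor, for genes above 0.5 TPM in asynchronous cells or at least 2 post-mitotic samples. Whether this cut came before or after the factor is not known. The factors of asynchronous −IAA replicates 1, 2 and 3 were 1.86, 2.17 and 1.89, so the cut on the deposited values could be higher than 0.5 TPM. They are not counts, so read depth is unknown and no count test was used. The headers of the asynchronous CTCF-AID columns are garbled, and their stage was inferred from sample titles and the column names of the study's supplementary data. All value columns were used (0 left out).

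Differences were fitted with limma 3.58.1 in R 4.3.3 (trended variance) on log2(TPM + 1) over all 18 −IAA libraries with stage and replicate as terms (8 residual degrees of freedom). P-values were Benjamini-Hochberg adjusted over 10237 genes. The replicate number came from the labels, and deviations from stage means correlated in 41 of 41 same-numbered pairs of libraries (r of 0.289 to 0.833, median 0.546). Stages that share only 2 replicates give the same r for both, so these 41 values are not independent. The interaction with IAA used 36 libraries. The labels give replicates without saying what separated them, so p-values measure the spread between these samples. Named genes were the 12 largest same-total rises and falls called under both scalings with 4 of 4 pairs agreeing and at least 1 TPM, up to 3 called members of each of 22 lists (else the 2 highest) and Ctcf, Pou5f1, Klf4, Esrrb, E2f1, Cdk2 and Rb1. Some genes that this rule names are not reported here. Other named members were chosen after their values were seen. Members and lists were chosen with earlier results of these data known. On simulated data of 10237 genes for the early G1 comparison, 99.5% of 200 genes raised by 1 and 88.0% of 200 lowered by 0.5 were recovered, with 4.09% false calls. The simulated libraries had independent noise, no replicate effect, no shift shared by genes and far fewer changed genes than were called here. They were not fitted under both scalings, so the share of false calls among the reported ones is not known from this. Alternatives were another pseudocount, a filter at 1 TPM, division by the library factor, no replicate block, fewer libraries and leaving out replicates. Gene positions are from Gencode vM21 (GRCm38), matched for 10225 genes, and sequences from RefSeq (GRCm38.p6).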

Additional observations from a re-analysis of the deposited data

Results flagged for a closer look

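In 1 of the 4 early G1 libraries, replicate 3 at 90 min, the sum of listed TPM was 38934.2, far above the other 3. Replicate 3 also had the highest sum of its stage among −IAA asynchronous (28455), mitotic (23302) and 50 min (43370) libraries, and its 90 min ratio to asynchronous cells, 1.37, lay within the 1.23 to 1.48 of the other pairs. The same library stood apart from the rest of its group in 9 named genes: Fbxw9 (22.9 TPM), Recql4 (6.58), Cdc45 (8.69), Ncaph (6.63), Tubg1 (6.98), Sesn2 (14), Polr1e (4.37), E2f1 (6.16) and Cdk2 (4.71). In Lefty1 the 120 min library of replicate 2 stood apart at 3.16 TPM, and in 1700030C10Rik the 90 min library of replicate 1 did so at 2.72 TPM, beside 3 libraries listed at 0. These were 11 of 88 named genes with a gap above Dixon's critical value for 4 samples, which chance alone gives in about 1 in 20 groups. Without the 90 min library of replicate 3 the calls of Fbxw9, Recql4, Cdc45, Ncaph, Tubg1, Sesn2, Polr1e and E2f1 held, and Cdk2 was not called in either case.

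The early G1 effect differed between cells with and without IAA for 3 genes by the interaction test on TPM as deposited, of which Vps37d was also called at the same total: Synm (−0.44 on the log2 scale, with IAA minus without), Vps37d (0.62) and Zbtb39 (−0.77). Synm lay below 0.5 TPM in every asynchronous library, with or without IAA, so it was listed through samples after mitosis. Vps37d had a mean below 0.5 TPM in asynchronous −IAA cells but reached 0.559 and 0.645 TPM in asynchronous +IAA cells. Which samples listed Vps37d was not tested, and the calls of both genes are not read as results. Zbtb39 stood at 0.465, 0.760 and 0.736 TPM in asynchronous and 1.86, 1.97, 1.67 and 2.15 TPM in early G1 −IAA cells, and between 0.270 and 0.534 TPM in all +IAA libraries of these stages.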

How the results depend on the processing

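The direction of the early G1 difference held for each of the 83 named genes called under both scalings in each of the 12 settings that tested them, and the calls lost were 9 without replicate 1, 8 without the replicate block, 3 without replicate 3, 2 with the 90 and 120 min values of replicate 1 averaged, and 1 or 0 elsewhere. The cause of these losses was not tested. The 83 genes were picked by calls under both scalings in these same libraries, and the same-total fit is also among the settings. Their direction was thus largely set by the choice, and that it held is no independent check. Leaving out the 90 min library of replicate 3 was chosen after seeing the data.

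At the same total 3075 genes were higher and 2867 lower, and the median difference was 0.012. After division by the library factor these were 2810, 2038 (2034 under both scalings) and 0.028, with 4221 genes called at 90 min, 3590 at 120 min and 1 for the difference with IAA. With a mean of at least 1 TPM required, which leaves fewer genes tested, 534 were lower (534 under both scalings) and 1 differed with IAA. With a pseudocount of 0.1 TPM the median was 0.40, and with 0.1 or 0.5 TPM 0 genes differed with IAA. Without the replicate block 4030 genes were higher and 403 lower (403 under both scalings), 2215 were called at 120 min and 0 differed with IAA. In fits of early G1 and asynchronous libraries alone, 5 genes were called between 120 and 90 min (the 7 −IAA libraries) and 0 differed with IAA (these and the +IAA libraries of the same stages).

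With replicates or the 90 min library left out, the counts as deposited ranged from 4564 to 5689 higher and from 402 to 827 lower, and under both scalings from 1898 to 2639 higher and from 399 to 825 lower, each lowest count of lower genes and of both-scaling rises being without replicate 1. At 90 min 3034 (without replicate 3) to 5897 genes were called and at 120 min 2898 (without replicate 2) to 5516. Between 120 and 90 min 0 to 8 were called and for the difference with IAA 0 to 3.

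Signs turned for uncalled genes. At the same total and after division by the factor, Ctcf was at −0.14 and −0.079, Klf4 at −0.13 and −0.065, Esrrb at −0.31 and −0.22, and Cdk2 at −0.058 and −0.014. Pou5f1 was at 0.0020 with replicate 1 averaged, and from −0.28 to 0.16 with libraries left out, Klf4 from −0.011 to 0.47 and Esrrb from −0.20 to 0.19. The medians of genes of 50 to 150 kb and over 150 kb were −0.057 and −0.19 at the same total. Without read counts, depth sets no stated limit on any value.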
